A study of Homo sapiens with 3 samples.

Results

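The glycolysis isozymes and their regulators are 30 genes, taken by name from the 61533 genes that each table lists, and all 30 were found. They were measured in Hep3B, an established human hepatoma line labelled wild type, by RNA sequencing of polyadenylated transcripts. The groups were 1% oxygen with sodium oxamate, 1% oxygen alone (hypoxia) and 20% oxygen (normoxia), with 1 library each. Oxamate inhibits lactate dehydrogenase, and the design text gives 48 hours for the oxamate culture. All groups shared the same medium with 10% serum, and neither an oxamate dose nor the number of cultures is given in the sources used here. Each condition has 1 library, so differences have no check against replicates and carry no p-values.

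Glycolysis splits glucose into pyruvate in a fixed order of enzyme steps, and most steps can be run by more than 1 isozyme. The isozymes come from separate genes and differ in tissue: liver favours forms such as the pyruvate kinase PKLR, whereas most tumours use hexokinase 2 and PKM. Many of the genes are textbook targets of the hypoxia-inducible factors (HIF), which bind DNA at a short core motif when oxygen is low. Regulators such as the PFKFB enzymes set the amount of fructose 2,6-bisphosphate, the activator of phosphofructokinase-1.

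Levels are the deposited FPKM values, which scale fragments to exon length and to an implied library total. That total was 1.02 times the summed fragments with oxamate, 1.06 times in hypoxia and 0.938 times in normoxia. Folds compare the fragments per gene recovered from the deposited values after scaling by trimmed mean of M values (TMM). They carry 95% exact conditional binomial (Clopper-Pearson) intervals, which cover counting error only. The labels describe no molecular identifiers, so fragments need not be independent molecules. FPKM ratios were 0.990, 0.994 and 0.984 times these folds for hypoxia over normoxia, oxamate over hypoxia, and oxamate over normoxia. A gene was called higher or lower where the libraries differed 2-fold or more and the higher one had 50 fragments or more. The libraries held 24826365 fragments with oxamate, 26309340 in hypoxia and 27412147 in normoxia.

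All 10 hepatoma markers were detected in every library, and their summed level was 2751 FPKM with oxamate, 4093 FPKM in hypoxia and 7677 FPKM in normoxia. Of these sums ALB alone was 1963, 2578 and 5362 FPKM. In hypoxia against normoxia, 5 of the 10 markers were lower and 1 higher, and with oxamate against hypoxia 5 were lower and 0 higher. Among all genes tested, 8.06% were lower and 10.8% higher in the first of these comparisons, and 5.07% and 5.92% in the second. The 4 markers of each other cell type summed to at most 3.46 FPKM for blood cells, 2.56 for endothelium, 2.73 for fibroblasts and stellate cells, 2.36 for muscle and 0.702 for neurons. CD3E, KDR, DCN, MYH2 and MB had 0 fragments in all 3 libraries. Other markers of these lists were detected and differed between libraries. PECAM1 (endothelium) had 499 fragments with oxamate, 230 in hypoxia and 33 in normoxia. In the same order, CD14 (blood cells) had 17, 22 and 140, and CKM (muscle) 19, 23 and 93. For fibroblasts and stellate cells, PDGFRB had 110, 438 and 315, and COL1A1 51, 130 and 76. TUBB3 (neurons) had 68, 59 and 15. These are levels in bulk RNA, so fewer cells of a type and less RNA per cell cannot be told apart.

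The 30 genes together took 1.49% of all fragments with oxamate (interval 1.489 to 1.498), 1.18% in hypoxia (1.18 to 1.19) and 0.663% in normoxia (0.660 to 0.666). GAPDH, the dehydrogenase of the sixth step, was the highest member in each library. It stood at rank 19 of all genes by FPKM with oxamate, 23 in hypoxia and 25 in normoxia. At the low end HK3 and PGAM2 had 0 fragments in all libraries. The floor of 3 fragments allows HK3 up to 0.0359 FPKM and PGAM2 up to 0.142 FPKM. HK1 and PFKFB1 had at most 13 and 16 fragments, so 26 of the 30 genes reached 50 fragments in some library. Per length, HK2, PFKL, PFKFB3, ENO1 and PKM led their steps in all 3 libraries. By the exon lengths in the files, the isozyme in second place differed by condition for the PFKFB enzymes and enolase. For hexokinase, phosphofructokinase-1 and pyruvate kinase it was the same in each library.

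**Figure D1:**
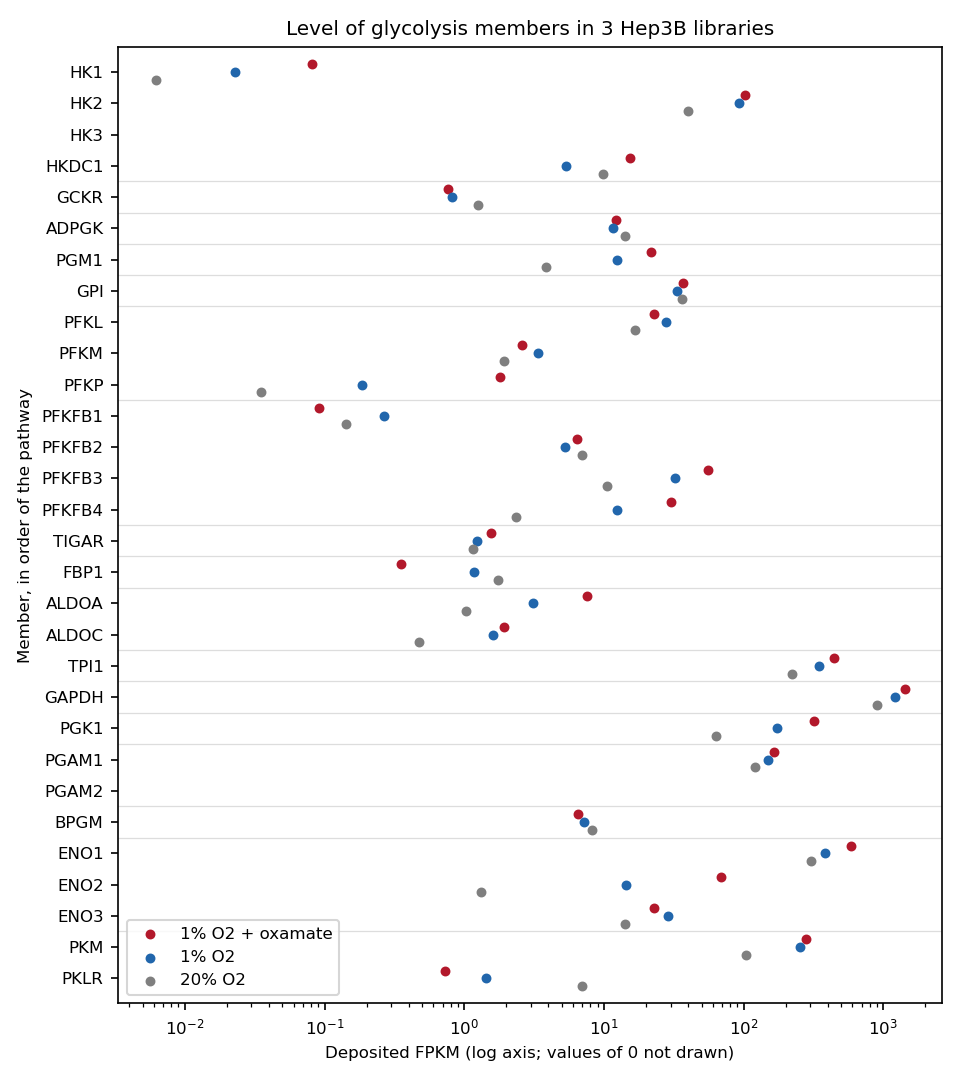
Deposited FPKM (log axis) of each of the 30 genes in pathway order, with 1 point per library. HK3 and PGAM2 have no point because they were listed at 0, and GAPDH reaches 1418 FPKM with oxamate.

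The first comparison asks how low oxygen altered the pathway. In hypoxia against normoxia 10 of the 25 members with enough fragments were at least 2-fold higher, 1 was lower and 14 were neither. Among all 13554 genes tested the shares were 10.8% higher and 8.06% lower. ENO2, PFKFB4, ALDOC, PGM1, PFKFB3, ALDOA, PGK1, PKM, HK2 and ENO3 were higher, and PKLR was lower. The median log2 ratio was 0.65 over the 25 members and -0.11 over all genes tested. ALDOC passed the minimum only through the hypoxia library, where it was high. Scaling by total fragments moved the median of all genes by 0.16 and gave 1775 higher and 751 lower genes in place of 1468 and 1093. Removing a gene length trend moved it by 0.11 and gave 1669 and 788. The members' counts of 10 and 1 were the same under both.

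The second comparison sets hypoxia with oxamate against hypoxia alone, and it shares the hypoxia library with the first. A culture time was recorded here only for the oxamate library, so a difference in time cannot be told apart from oxamate. With oxamate 5 of 26 members were higher than in hypoxia alone, 1 was lower and 20 were neither, against 5.92% higher and 5.07% lower among 13739 genes tested. PFKP, ENO2, HKDC1, PFKFB4 and ALDOA were higher, and FBP1 was lower. The median log2 ratio was 0.26 over these members and -0.01 over all genes. PFKP passed the minimum only through the oxamate library and FBP1 only through the hypoxia library. Against normoxia, oxamate in hypoxia had 11 of 26 members higher and 2 lower, where all 13597 genes tested gave 15.4% higher and 15.3% lower. Here PFKP and ALDOC passed the minimum only through the oxamate library, and FBP1 only through the normoxia library.

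**Figure D2:**
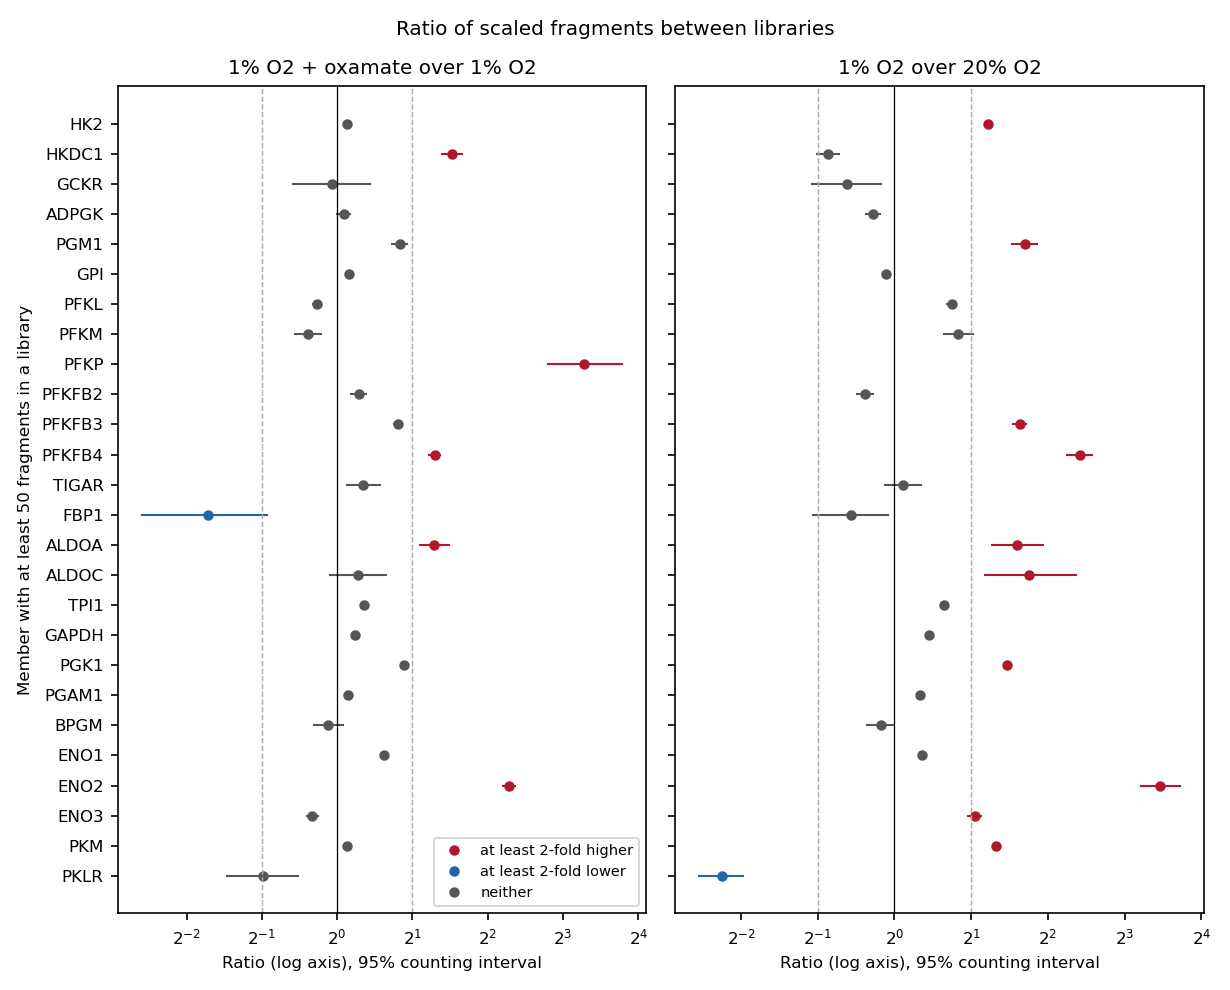
Ratio of scaled fragments (log axis) of the 26 members with at least 50 fragments in a library, with 95% counting intervals, for oxamate over hypoxia (left) and hypoxia over normoxia (right). Dashed lines mark 2-fold, which ENO2, PFKFB4 and ALDOA pass in each panel (the panels share the hypoxia library); PFKP has no point on the right because it had under 50 fragments in both of those libraries.

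Glucose enters the pathway through hexokinases, and HK2, the isozyme typical of tumours, led this step in all 3 libraries. HK2 had 101 FPKM with oxamate, 92.95 FPKM in hypoxia and 40.3 FPKM in normoxia, so both low-oxygen libraries lay above normoxia. It was 2.33-fold higher in hypoxia than in normoxia (2.26 to 2.40) and 1.099-fold above hypoxia with oxamate (1.07 to 1.12). HKDC1, a further hexokinase, had 15.4 FPKM with oxamate, 5.38 FPKM in hypoxia and 9.91 FPKM in normoxia. The hypoxia library was the lowest of the 3 for HKDC1. It was 2.89-fold higher with oxamate than in hypoxia (2.63 to 3.17), and its ratio of hypoxia to normoxia was 0.549 (0.497 to 0.606). HK2 therefore held 86.7% of the summed hexokinase FPKM with oxamate (86.1 to 87.3), 94.5% in hypoxia (94.1 to 94.9) and 80.3% in normoxia (79.2 to 81.3), and HKDC1 held nearly all of the rest.

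HK1, the hexokinase found in most tissues, had 13 fragments with oxamate, 4 in hypoxia and 1 in normoxia. GCKR, a regulatory protein of glucose phosphorylation in liver, had 0.766 FPKM with oxamate, 0.811 FPKM in hypoxia and 1.26 FPKM in normoxia. Its ratio was 0.951 for oxamate over hypoxia (0.664 to 1.36) and 0.651 for hypoxia over normoxia (0.474 to 0.890). ADPGK, which phosphorylates glucose with ADP, stood at 12.2 FPKM with oxamate, 11.6 FPKM in hypoxia and 14.2 FPKM in normoxia.

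PGM1 interconverts glucose 1-phosphate and glucose 6-phosphate and so links glycogen to glycolysis. It had 21.8 FPKM with oxamate, 12.3 FPKM in hypoxia and 3.84 FPKM in normoxia, a different level in each library. It was 3.25-fold higher in hypoxia than in normoxia (2.90 to 3.63), and 1.78-fold above hypoxia with oxamate (1.66 to 1.90), below the 2-fold rule. GPI, the isomerase that turns glucose 6-phosphate into fructose 6-phosphate, differed little between libraries, with 37.0 FPKM with oxamate, 33.4 FPKM in hypoxia and 36.3 FPKM in normoxia. Its log2 ratio of hypoxia to normoxia was -0.11, and 0.051 under scaling by total fragments, so it has no settled direction.

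Phosphofructokinase-1 commits sugar to glycolysis, and its liver isozyme PFKL led the step in every library. PFKL had 23.0 FPKM with oxamate, 27.9 FPKM in hypoxia and 16.8 FPKM in normoxia, and the muscle isozyme PFKM had 2.58, 3.38 and 1.92 FPKM. Both were highest in hypoxia alone. PFKL was 1.68-fold above normoxia in hypoxia (1.61 to 1.75) and PFKM 1.78-fold (1.56 to 2.03), short of the 2-fold rule. With oxamate against hypoxia the ratios were 0.828 for PFKL (0.799 to 0.859) and 0.767 for PFKM (0.681 to 0.864).

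PFKP, the platelet isozyme, stood apart from the other phosphofructokinases. It had 351 fragments with oxamate, 40 in hypoxia and 7 in normoxia, or 1.80, 0.186 and 0.0352 FPKM. It was 9.71-fold higher with oxamate than in hypoxia (6.99 to 13.8) and 51.9-fold higher than in normoxia (24.9 to 130). Its share of the summed phosphofructokinase FPKM was 6.57% with oxamate (5.92 to 7.27), 0.592% in hypoxia (0.423 to 0.805) and 0.188% in normoxia (0.0756 to 0.387). The files give PFKP an exon length of 7728 bases, against 4836 in GENCODE 29, and with the latter its share with oxamate came to 10.1%. By the lengths in the files, PFKM was next after PFKL with oxamate, and PFKL was 8.89 times PFKM (8.09 to 9.79). By the GENCODE 29 lengths PFKP was next, at 2.87 FPKM with oxamate, where PFKM had 2.56 and PFKL 22.96.

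The PFKFB enzymes make and break fructose 2,6-bisphosphate and showed a change of makeup. PFKFB3, whose kinase activity predominates, had 55.8 FPKM with oxamate, 32.2 FPKM in hypoxia and 10.5 FPKM in normoxia. It was 3.10-fold higher in hypoxia than in normoxia (2.93 to 3.28) and 1.75-fold above hypoxia with oxamate (1.69 to 1.81). PFKFB4 (chromosome 3, 48517684 to 48562015, hg38) had 30.4 FPKM with oxamate, 12.4 FPKM in hypoxia and 2.36 FPKM in normoxia. It passed the rule in both comparisons, at 5.34-fold for hypoxia over normoxia (4.78 to 5.98) and 2.46-fold for oxamate over hypoxia (2.33 to 2.59). PFKFB2, the heart isozyme, moved little, with 6.42 FPKM with oxamate, 5.30 FPKM in hypoxia and 6.99 FPKM in normoxia. The liver isozyme PFKFB1 had 5, 16 and 8 fragments in the same order.

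Within the PFKFB group the second place changed hands. PFKFB3 led in all 3 libraries per length of transcript, with 60.2% of the group's FPKM with oxamate, 64.1% in hypoxia and 52.5% in normoxia. PFKFB4 held 32.8% with oxamate (32.0 to 33.6), 24.8% in hypoxia (23.9 to 25.7) and 11.8% in normoxia (10.7 to 12.96). PFKFB2 held 6.92% with oxamate, 10.6% in hypoxia and 34.99% in normoxia. Without division by length PFKFB2 led in normoxia, with 47.4% of the fragments, because its annotated exons are 10176 bases long against 6114 for PFKFB3.

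TIGAR, a fructose 2,6-bisphosphatase, had 1.56 FPKM with oxamate, 1.24 FPKM in hypoxia and 1.16 FPKM in normoxia. In GENCODE 29, 42.6% of the exon bases of TIGAR are shared on the same strand with a longer gene, ENSG00000285901, which had 0 fragments in all libraries, so the TIGAR level is uncertain. Its exon length is 9444 bases in the files and 4017 in GENCODE 29, and the shorter length gives 3.67 FPKM with oxamate, 2.91 FPKM in hypoxia and 2.72 FPKM in normoxia. FBP1, which reverses phosphofructokinase in gluconeogenesis, had 17 fragments with oxamate, 62 in hypoxia and 86 in normoxia. It stood 3.30-fold below hypoxia with oxamate (1.90 to 6.02), an interval that reaches inside 2-fold, and 4.89-fold lower than in normoxia (2.88 to 8.78). A further 16.3% of the FBP1 exon bases overlap PCAT7 on the other strand.

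The aldolases split fructose 1,6-bisphosphate into trioses. ALDOA, the muscle and tumour isozyme, had 7.52 FPKM with oxamate, 3.10 FPKM in hypoxia and 1.04 FPKM in normoxia, far below the neighbouring steps. The ALDOA row (chromosome 16, 30064164 to 30070457) shares 42.3% of its GENCODE 29 exon bases, on the same strand, with ENSG00000285043 (30053123 to 30070414). That gene had 67 fragments with oxamate, 48 in hypoxia and 14 in normoxia, against 728, 330 and 102 for ALDOA. How fragments on the shared bases were counted is not given in the sources used here, so the ALDOA level is uncertain. On the fragments counted, ALDOA was 3.02-fold higher in hypoxia than in normoxia (2.42 to 3.81) and 2.44-fold higher with oxamate than in hypoxia (2.14 to 2.79).

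ALDOC, the brain isozyme, had 127 fragments with oxamate, 116 in hypoxia and 32 in normoxia. It was 3.39-fold higher in hypoxia than in normoxia (2.27 to 5.18), and its ratio of oxamate to hypoxia was 1.21 (0.934 to 1.57). No leading aldolase is named here, because the ALDOA fragments are uncertain.

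TPI1, GAPDH, PGK1 and PGAM1 carry the middle of the pathway, and each was highest with oxamate and lowest in normoxia. TPI1, which interconverts the trioses, had 440.5 FPKM with oxamate, 346 FPKM in hypoxia and 223 FPKM in normoxia. GAPDH had 1418 FPKM with oxamate, 1208 FPKM in hypoxia and 897 FPKM in normoxia. GAPDH was 1.36-fold above normoxia in hypoxia (1.35 to 1.38) and TPI1 1.57-fold (1.54 to 1.60), and neither passed the rule. TPI1 with oxamate stood at 2.01-fold of normoxia (1.97 to 2.05), on the edge of the rule, and fell short of it with the deposited FPKM (log2 0.98).

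PGK1, which makes the pathway's first ATP, differed more than these neighbours. It had 316 FPKM with oxamate, 172 FPKM in hypoxia and 63.1 FPKM in normoxia. It was 2.76-fold higher in hypoxia than in normoxia (2.69 to 2.82), and 1.85-fold above hypoxia with oxamate (1.82 to 1.88). By FPKM it stood at rank 56 of all genes with oxamate, 110 in hypoxia and 587 in normoxia. PGAM1, the phosphoglycerate mutase of most tissues, had 165 FPKM with oxamate, 150.3 FPKM in hypoxia and 120.5 FPKM in normoxia. PGAM2, the muscle isozyme, was listed at 0 throughout, and all of its exon bases overlap DBNL on the other strand, which makes that 0 uncertain. BPGM, which diverts the intermediate into the red cell effector 2,3-bisphosphoglycerate, had 6.56 FPKM with oxamate, 7.15 FPKM in hypoxia and 8.19 FPKM in normoxia, and the sign of its hypoxia ratio turned when a gene length trend was removed (log2 -0.18 and 0.13).

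Processed pseudogenes resemble several of these genes and could take some of their fragments. The 4 TPI1 pseudogene rows together held 309 fragments with oxamate, 224 in hypoxia and 120 in normoxia, which is 1.03%, 0.864% and 0.776% of the TPI1 count. The 65 GAPDH pseudogene rows held 235, 185 and 96 fragments, at most 0.274% of GAPDH. For PGAM1, the largest share was 0.781%, with oxamate. How fragments that match several places were treated is not given in the sources used here.

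Enolase isozymes differed widely in how far they moved apart between libraries. ENO1, the form of most tissues, had 583 FPKM with oxamate, 381 FPKM in hypoxia and 301 FPKM in normoxia. It was 1.28-fold above normoxia in hypoxia (1.26 to 1.296) and 1.54-fold above hypoxia with oxamate (1.52 to 1.56). ENO2, the neuronal form (chromosome 12, 6913745 to 6923698), had 68.9 FPKM with oxamate, 14.3 FPKM in hypoxia and 1.31 FPKM in normoxia. These came from 7463, 1698 and 144 fragments, and each library stood well apart from the next. ENO2 was 11.02-fold higher in hypoxia than in normoxia (9.29 to 13.2), 4.86-fold higher with oxamate than in hypoxia (4.61 to 5.13) and 53.6-fold higher with oxamate than in normoxia (45.4 to 63.7).

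ENO3, the muscle form, followed another order. It had 22.8 FPKM with oxamate, 28.8 FPKM in hypoxia and 14.1 FPKM in normoxia, and was highest in hypoxia alone. Its fold of 2.06 for hypoxia over normoxia (1.94 to 2.19) passed the rule by the ratio but not by the whole interval, and the ratio of oxamate to hypoxia was 0.797 (0.757 to 0.840). ENO1 led the step throughout, with 86.4% of the enolase FPKM with oxamate (86.16 to 86.65), 89.8% in hypoxia (89.6 to 90.1) and 95.1% in normoxia (94.9 to 95.4). ENO2 held 10.2% with oxamate (9.99 to 10.4), 3.36% in hypoxia (3.21 to 3.52) and 0.413% in normoxia (0.348 to 0.486), so it was second to ENO1 with oxamate, while ENO3 was second in hypoxia and in normoxia. The 4 neuron markers summed to 0.563 FPKM with oxamate, 0.702 in hypoxia and 0.294 in normoxia, and the muscle markers to 0.666, 0.637 and 2.36 FPKM; their part in the enolase levels was not tested.

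Pyruvate kinase closes the pathway, and its 2 genes lay on opposite sides of normoxia in hypoxia. PKM, the form of muscle and of most tumours, had 277 FPKM with oxamate, 255.1 FPKM in hypoxia and 103 FPKM in normoxia. It was 2.50-fold higher in hypoxia than in normoxia (2.46 to 2.54) and 1.09-fold above hypoxia with oxamate (1.08 to 1.11). PKLR, the liver and red cell form (chromosome 1, 155289293 to 155301438), had 58 fragments with oxamate, 127 in hypoxia and 566 in normoxia, or 0.724, 1.44 and 6.95 FPKM. PKLR was 4.77-fold lower in hypoxia than in normoxia (3.93 to 5.83), and 9.44-fold lower with oxamate than in normoxia (7.19 to 12.6). With oxamate against hypoxia its ratio was 0.505 (0.364 to 0.695), at the edge of the rule.

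PKM held 99.7% of the pyruvate kinase FPKM with oxamate (99.7 to 99.8), 99.4% in hypoxia (99.3 to 99.5) and 93.7% in normoxia (93.2 to 94.2). The ratio of PKM to PKLR per length was 383 with oxamate (296 to 504), 177 in hypoxia (149 to 212) and 14.8 in normoxia (13.7 to 16.2). Counts per gene do not separate the PKM1 and PKM2 splice forms. Some 17.6% of the PKLR exon bases overlap HCN3 on the other strand, which had 286 fragments with oxamate, 354 in hypoxia and 376 in normoxia. The summed hepatoma markers were 2751 FPKM with oxamate, 4093 in hypoxia and 7677 in normoxia, of which ALB alone was 1963, 2578 and 5362. In hypoxia against normoxia 5 of these 10 markers were lower, 4 neither and 1 higher, which was TF. The part of these markers in the pyruvate kinase difference was not tested.

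**Figure D3:**
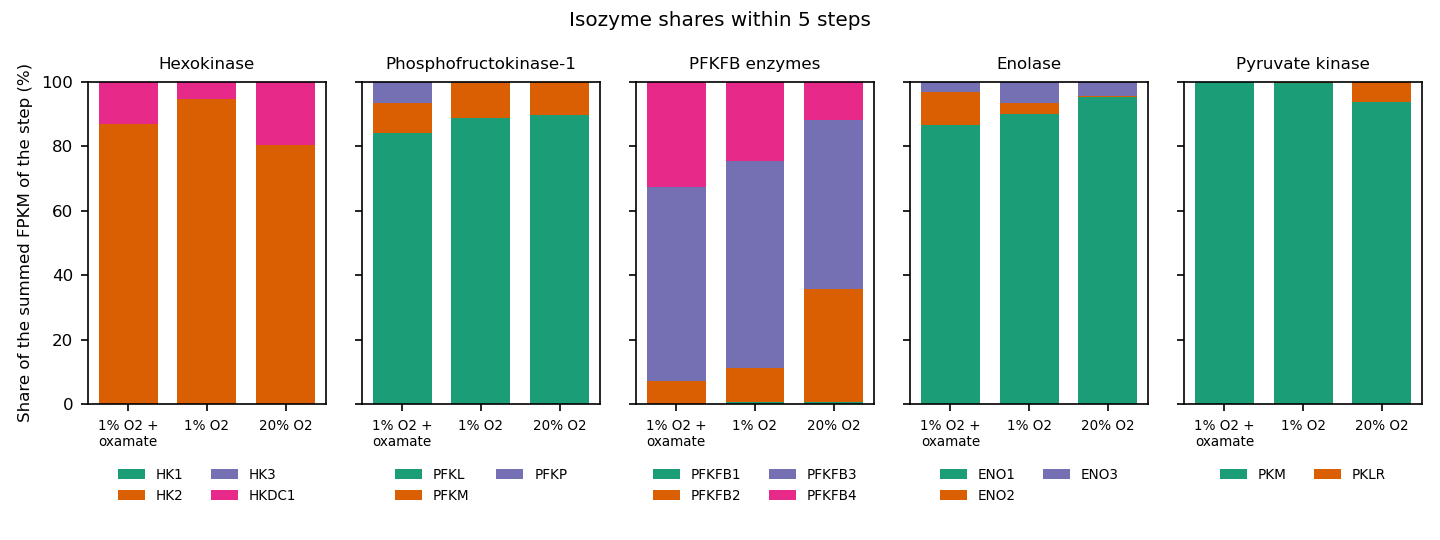
Share of each isozyme in the summed FPKM of its step (%), for 5 steps and the 3 libraries. HK2, PFKL, PFKFB3, ENO1 and PKM lead in every library; ENO2 reaches 10.2% of enolase and PFKP 6.57% of phosphofructokinase with oxamate, and PKLR holds 6.31% of pyruvate kinase in normoxia.

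HIF binds DNA at a core that reads ACGTG or GCGTG, so the promoters were searched for these letters on both strands, where the other strand reads CACGT or CACGC. RefSeq (GRCh38.p14) gave windows of 250 bases before and 50 after the start for 29 of the 30 genes, with 54 starts in all. The core was present in 32 of these 54 windows, or 59.3%, against 48.4% of 35116 windows over all genes. In the 150 bases nearest the start (100 before and 50 after) the order turned, with 29.6% of the members' windows against 31.8% of all. By the call for hypoxia over normoxia, the core was in a window of 10 of the 10 higher genes and of the 1 lower gene. It was also in a window of 11 of the 13 genes called neither and of 3 of the 5 not tested. The core was thus not particular to called members, and the letters do not show binding.

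The windows of 5 genes are printed because they belong to members called in hypoxia, PKLR lower and the others higher. They were chosen after the values were seen, and where a gene has several windows the one with the most cores is shown. PKLR has 2 windows, and the one not printed lacks the core, whereas both of the 2 windows of PFKFB3 hold it. Counts per gene do not show which start of a gene was used in Hep3B, so the printed PKLR window need not be the one in use. Each reads 5′ to 3′ on the strand of the gene, and capitals mark the core. PFKFB3 (chr10:6202682-6202981, plus strand) and PKLR (chr1:155301389-155301688, minus strand) both hold the palindrome CACGTG, which contains the core on both strands. It begins 108 bases before the start in PFKFB3 and 197 before it in PKLR. In ENO2 (chr12:6914330-6914629, plus strand) the core begins 118 bases before the start, and in PFKFB4 (chr3:48556754-48557053, minus strand) 166 before it. PGK1 (chrX:78103998-78104297, plus strand) holds 4 cores, of which 3 lie 211, 202 and 183 bases before the start and 1 begins at base 29 after it.
PFKFB3: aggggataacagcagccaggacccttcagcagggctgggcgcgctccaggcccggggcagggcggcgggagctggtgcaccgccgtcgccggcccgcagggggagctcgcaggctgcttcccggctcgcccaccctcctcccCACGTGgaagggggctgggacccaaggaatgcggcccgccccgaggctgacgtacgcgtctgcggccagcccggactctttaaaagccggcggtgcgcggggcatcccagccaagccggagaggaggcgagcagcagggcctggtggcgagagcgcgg
PFKFB4: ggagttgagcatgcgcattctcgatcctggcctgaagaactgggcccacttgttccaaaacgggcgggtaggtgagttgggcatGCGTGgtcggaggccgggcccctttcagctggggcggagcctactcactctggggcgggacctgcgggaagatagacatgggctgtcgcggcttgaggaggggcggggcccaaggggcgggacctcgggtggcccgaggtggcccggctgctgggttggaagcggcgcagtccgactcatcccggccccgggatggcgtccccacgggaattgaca
PGK1: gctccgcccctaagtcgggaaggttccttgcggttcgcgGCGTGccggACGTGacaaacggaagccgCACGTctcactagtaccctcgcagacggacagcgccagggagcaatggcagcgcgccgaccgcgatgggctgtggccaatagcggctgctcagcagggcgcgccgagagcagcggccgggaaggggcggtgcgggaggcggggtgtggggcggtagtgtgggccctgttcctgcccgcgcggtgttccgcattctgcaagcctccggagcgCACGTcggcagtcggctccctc
ENO2: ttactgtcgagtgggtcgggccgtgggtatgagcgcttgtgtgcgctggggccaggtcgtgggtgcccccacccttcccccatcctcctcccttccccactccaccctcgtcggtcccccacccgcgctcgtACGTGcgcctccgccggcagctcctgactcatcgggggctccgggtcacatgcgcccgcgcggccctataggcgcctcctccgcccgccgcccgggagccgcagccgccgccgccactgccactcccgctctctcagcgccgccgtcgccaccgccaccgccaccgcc
PKLR: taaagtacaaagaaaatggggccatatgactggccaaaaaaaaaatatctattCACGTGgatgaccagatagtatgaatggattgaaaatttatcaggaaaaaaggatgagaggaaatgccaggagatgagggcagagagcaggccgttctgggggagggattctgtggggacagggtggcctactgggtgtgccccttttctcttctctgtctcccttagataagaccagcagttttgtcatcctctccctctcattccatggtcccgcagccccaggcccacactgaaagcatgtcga

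Other pathways that share intermediates with glycolysis were described by lists of their genes. Among all genes tested, 10.8% were higher and 8.06% lower in hypoxia than in normoxia. With oxamate against hypoxia the shares were 5.92% and 5.07%. The lists are short, so 1 or 2 calls in a list are given as description and not as a result about the pathway. In the pentose phosphate pathway, which makes NADPH and ribose, 8 of 9 genes had enough fragments, and 1 was higher and 2 lower in hypoxia than in normoxia, with a median log2 ratio of -0.86. TKT, a transketolase, had 9.65 FPKM with oxamate, 8.70 FPKM in hypoxia and 25.04 FPKM in normoxia, and was 2.85-fold lower in hypoxia than in normoxia (2.71 to 2.99). H6PD, an enzyme of the endoplasmic reticulum, was 2.82-fold higher (2.66 to 2.99). With oxamate against hypoxia 0 of these 8 were higher and 0 lower.

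In gluconeogenesis and fructose entry 6 of 12 genes had enough fragments, and 0 were higher and 2 lower in hypoxia than in normoxia, and their median was -0.78. KHK, which phosphorylates fructose, was 2.77-fold lower (2.25 to 3.44), and PCK2, the mitochondrial carboxykinase, 2.53-fold lower (2.32 to 2.76). With oxamate, KHK stood a further 2.85-fold below hypoxia (1.97 to 4.20). PC, pyruvate carboxylase, had 49.3 FPKM with oxamate, 38.2 FPKM in hypoxia and 27.1 FPKM in normoxia. The liver enzymes G6PC1 and PCK1 had at most 1 fragment in any library.

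In the hexosamine and sorbitol branches 0 of 6 measured genes were higher and 2 lower in hypoxia. SORD, sorbitol dehydrogenase, was 4.47-fold lower (3.999 to 5.003), and GFPT1, which commits fructose 6-phosphate to hexosamines, stood at 1.60-fold of normoxia (1.54 to 1.66). With oxamate against hypoxia 1 of 7 was higher and 1 lower: AKR1B1, aldose reductase, had 676 fragments with oxamate, 10 in hypoxia and 2 in normoxia, and SORD was 2.94-fold lower (2.39 to 3.64). Among 9 further isozymes of glycolysis, 3 had enough fragments in hypoxia and normoxia. PGM2L1, which makes glucose 1,6-bisphosphate, was 6.02-fold higher in hypoxia (4.51 to 8.18) and PGM2 2.09-fold lower (1.92 to 2.27).

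The list of HIF targets outside glycolysis, like the members, was chosen with earlier results of these data known. Its counts and medians are therefore description only. Among these 16 targets, 13 were higher in hypoxia than in normoxia and 0 lower, and their median log2 ratio was 2.62, where the 25 glycolysis members had 0.65. CA9, a carbonic anhydrase, had 144 FPKM with oxamate, 115 FPKM in hypoxia and 4.21 FPKM in normoxia. With oxamate against hypoxia 4 of the 16 were higher and 0 lower, and the median was 0.69. Against normoxia, all 16 were higher with oxamate, and the median was 2.88. The shares of all genes tested that were higher were 10.8% for hypoxia over normoxia, 5.92% for oxamate over hypoxia and 15.4% for oxamate over normoxia. INSIG2, a regulator of sterol synthesis, was 3.82-fold higher with oxamate than in hypoxia (3.66 to 3.98). In hypoxia it stood at 1.83-fold of normoxia (1.72 to 1.95), short of the rule.

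**Figure D4:**
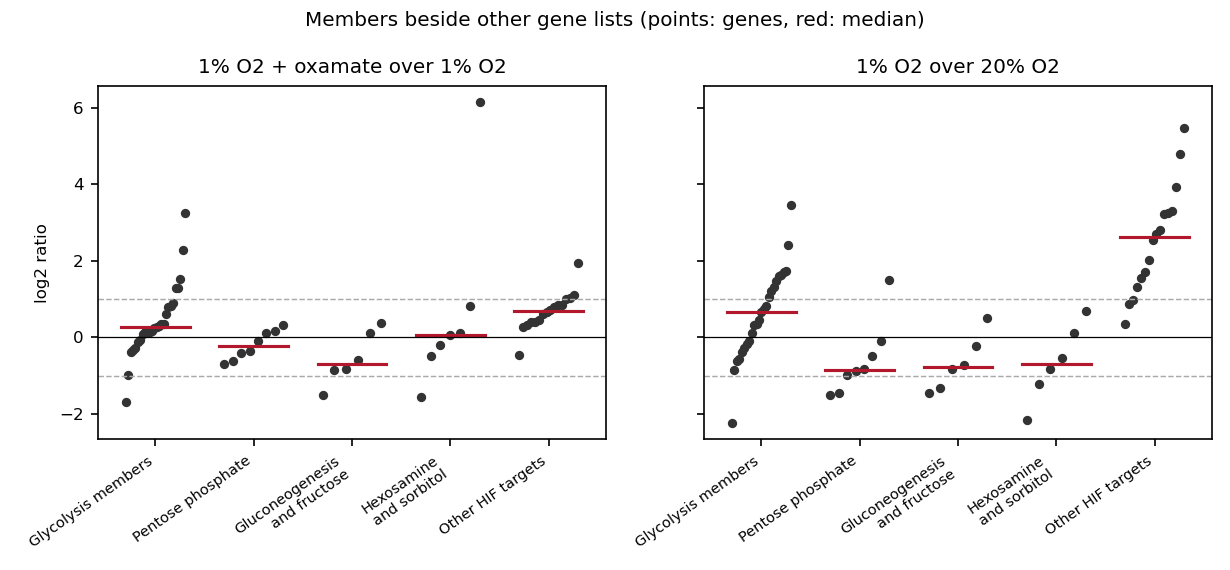
Log2 ratio of each measured gene (points) and the median (red) for the glycolysis members and 4 other lists, for oxamate over hypoxia (left) and hypoxia over normoxia (right). In hypoxia the members' median of 0.65 lies between those of the pentose phosphate genes (-0.86) and of the other HIF targets (2.62). Members and lists were chosen with earlier results of these data known.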

How the data were processed

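The deposited tables give 1 value per gene, read here as FPKM: each value above 0 times the gene length was a whole multiple of 1 constant per library (100% within 0.01), and the headers name only the condition. Per the submitters' processing notes, the tools were edgeR 3.22.5, featureCounts 1.5.0-p3, HISAT2 2.0.5 and StringTie 1.3.3b on the build hg38, with no role given. The scaling that the authors' values imply equalled median-of-ratios size factors. The whole multiples were taken as fragments. The factors of the trimmed mean of M values were 1.01 (oxamate), 1.05 (hypoxia) and 0.944 (normoxia), over genes with at least 10 fragments in all, trimming 30% of ratios and 5% of levels. Medians use a prior of 0.5. Computation used Python 3.11.15 with pandas 2.3.3, statsmodels 0.14.6, scipy 1.17.1, matplotlib 3.10.9 and numpy 2.4.6, and the calls were tested on simulated data. Exon overlap came from GENCODE 29, whose lengths differ from the files by over 10% for 4 members. The members and lists were chosen with earlier results of these data known, and 9 alternatives were tried per comparison. Every member with at least 50 fragments in a library was named; of other lists, up to 4 genes with the highest and lowest ratio of hypoxia to normoxia. Some genes of these lists are not reported here. AKR1B1, G6PC1 and PCK1 fall outside this rule and were chosen after their values were seen.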

Additional observations from a re-analysis of the deposited data

How the results depend on the processing

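No paired analysis was possible because each condition has 1 library. Under the lower minimums, the whole-interval rule and the 1.5-fold threshold the ratios themselves did not change, so no direction could turn. The lower minimums could not change the call of a member already tested either. Scaling by the deposited FPKM and by median-of-ratios size factors gave the same values, so the one is no separate check on the other. Part of the next count was therefore fixed in advance. Of 693 ratios of members under 9 alternatives in 3 comparisons, these settings included, 665 kept their direction and their side of the threshold. Those that turned were GPI in hypoxia over normoxia with total fragments (log2 0.051) and in oxamate over normoxia without the gene length trend (-0.058), and BPGM without that trend in hypoxia over normoxia (0.13) and oxamate over normoxia (0.027). Counts of members moved beyond 1.5 times as follows. At 1.5-fold, 3 were lower in hypoxia, and with oxamate against hypoxia 9 were higher and 2 lower. With oxamate against hypoxia, 2 were also lower with total fragments, with a minimum of 10 fragments and with no minimum, and 0 were lower when the whole interval had to pass. The leading isozyme was the same under lengths less 200 bases, added pseudogene fragments and GENCODE 29 lengths, the last chosen after seeing the data. Without division by length PFKFB2 led in normoxia. The shares themselves depend on the lengths used. The largest move was 12.4 points without division by length (PFKFB2 in normoxia) and 3.54 points with GENCODE 29 lengths (PFKP with oxamate). The intervals of the shares do not cover this. In a window of 150 bases, 29.6% of member promoters held the HIF core, against 31.8% of all. The 1 library per condition limits every ratio; intervals cover counting error only.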

Other observations

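HK2-DT, a noncoding gene read away from HK2 on the other strand (chromosome 2, 74832655 to 74833987), ends 140 bases before the HK2 row begins. It had 8 fragments with oxamate, 26 in hypoxia and 75 in normoxia, while HK2 had 15188, 15296 and 6132. HK2-DT was thus 3.09-fold lower in hypoxia than in normoxia (1.95 to 5.02) and stood 2.94-fold below hypoxia with oxamate (1.29 to 7.51), with 1 library per condition and few fragments. It was looked at after its values were seen.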
